A study of Mus musculus with 6 samples.

Results

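The let-7 and miR-98 guide strands were followed through 6 mouse small RNA libraries, 3 from oviducts and 3 from primary tumors. The family was taken as 9 of the 1915 mouse microRNA names in the count table, the 5p strands of let-7a, let-7b, let-7c, let-7d, let-7e, let-7f, let-7g, let-7i and miR-98. They were chosen by name, and all 9 passed the low-count filter. The oviducts carried the genotype Dicer1+/D1693N and the tumors Dicer1ko/D1693N, so both groups held the D1693N allele. By genotype, no normal Dicer1 allele remained beside it in the tumors. Both groups were labelled as oviduct tissue with no treatment. The labels give no age and no promoter that drove the deletion, and they do not say what the tumors' tag ADT stands for.

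MicroRNAs are short RNAs that guide Argonaute proteins to messenger RNAs. The enzyme Dicer cuts them out of hairpin precursors, whose sides give the 5p and the 3p strand. Its RNase IIIb domain, which D1693N changes, makes the cut on the 5p side. In let-7 hairpins the 5p strand is the guide, the strand that is mostly kept. The let-7 family is known for marking the differentiated state of cells, and its known targets include messenger RNAs of Ras, Hmga2, Myc and Lin28. Lin28 proteins in turn block the processing of let-7 precursors. None of these messenger RNAs was analysed here.

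All 9 members matched a mature sequence in RefSeq (GRCm38.p6). The sequences are shown because the members pair with targets through a common seed and differ so little that reads of close members may be assigned to one another. Each is written 5′ to 3′, with the seed, bases 2 to 8, in capitals.
mmu-let-7f-5p: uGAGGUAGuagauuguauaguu
mmu-let-7c-5p: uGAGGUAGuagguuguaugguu
mmu-let-7a-5p: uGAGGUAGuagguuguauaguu
mmu-let-7i-5p: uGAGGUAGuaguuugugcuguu
mmu-let-7g-5p: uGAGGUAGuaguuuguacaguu
mmu-let-7b-5p: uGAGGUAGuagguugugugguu
mmu-let-7e-5p: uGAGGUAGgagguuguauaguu
mmu-let-7d-5p: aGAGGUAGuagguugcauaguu
mmu-miR-98-5p: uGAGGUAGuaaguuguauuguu

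The seed was identical in all 9, and all are 22 bases long, so their counts can be set side by side without a term for length. Differences from let-7a are given with the let-7a base first and positions counted from 1 at the 5′ end. A single base separated let-7a from let-7c (A19G), from let-7e (U9G) and from let-7f (G12A), and let-7b from let-7c. The miR-98 strand differed from let-7a by G11A and A19U, and let-7d by U1A and U16C, which makes let-7d the member that starts with A. The most distant pair differed at 6 bases, and 4 of the 36 pairs at 1 base. The counting rule for such reads is not given in the sources used here, so the split between let-7a, let-7c, let-7e, let-7f and let-7b is less certain than their sum.

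The 9 sequences lay in 12 annotated hairpins. Mirlet7d (chr13:48536012-48536114), Mirlet7f-1 (chr13:48537829-48537917) and Mirlet7a-1 (chr13:48538179-48538272) are on the minus strand in exons of the long noncoding RNA gene 6720427I07Rik. Mirlet7c-2 (chr15:85706603-85706697) and Mirlet7b (chr15:85707319-85707403) are in exons of Lncppara, and Mirlet7c-1 (chr16:77599657-77599750) is in an intron of Mir99ahg. Mirlet7e (chr17:17830352-17830444) is in an intron of Spaca6, Mirlet7a-2 (chr9:41536716-41536811) in introns of 3110039I08Rik and Gm49317, and Mirlet7g (chr9:106178840-106178927) in an intron of Wdr82. Mirlet7i (chr10:122985640-122985724), on the minus strand, overlaps an exon of the pseudogene D630033A02Rik. Mirlet7f-2 (chrX:151912346-151912428) and Mir98 (chrX:151913214-151913321) lie 786 bases apart in an intron of Huwe1. Since let-7a, let-7c and let-7f each come from 2 hairpins, their counts do not say which locus was used.

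Mouse microRNA counts per library ranged from 297039 to 580390 for oviducts and from 154002 to 272167 for tumors. Levels are in CPM, the count divided by the effective library size, with trimmed mean of M-values (TMM) factors unless another scale is named, and tests are edgeR quasi-likelihood tests with Benjamini-Hochberg adjustment over the 227 names tested. Whether replicates are separate animals is not stated in the labels, and p-values then reflect only how far these samples differ, which may be technical. Column names carry the tag s0 in the 3 oviducts and s1 in the 3 tumors, and the meaning of the tag is not given. Tissue state, genotype and this tag changed together and cannot be told apart. In whole tissue, fewer cells of a type and less RNA per cell cannot be told apart either.

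The pooled family was lower in the tumors with TMM scaling, and all 8 let-7 members lay lower there, with no overlap between the groups, while miR-98 did not. Lower levels without overlap were seen for 30.4% of all tested names and 55.8% of the tested 5p names, members included. Summed over the 9 members, the level was 39158, 37810 and 52637 CPM in the oviducts. It was 21374, 22225 and 21339 CPM in the tumors. The group means were 43201 ± 8199 and 21646 ± 502 CPM (SD, n = 3 each), a 2.00-fold difference (log2 -0.997). Every tumor lay below every oviduct, and the tumors were much closer to each other than the oviducts were. No test was made of this sum, because its members were chosen as a set.

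The direction of the pooled difference held in 6 of the 7 scalings and was turned by the other one. As a plain share of mouse microRNA counts the family took 3.36% (exact 95% interval 3.30 to 3.42), 3.58% (3.54 to 3.63) and 4.50% (4.43 to 4.58) in the oviducts. It took 1.57% (1.52 to 1.61), 2.94% (2.86 to 3.02) and 3.16% (3.08 to 3.25) in the tumors. Tumors 2 and 3 thus came close to oviduct 1, and the log2 difference of the mean shares was -0.58. The intervals cover counting error only. In this share 1 other microRNA weighs heavily, since miR-143-3p, a microRNA of smooth muscle and fibroblasts, took 44.1% to 47.2% of the oviduct counts but 60.9%, 27.7% and 13.9% of the tumor counts. With miR-143-3p left out of the total, the family took 6.01%, 6.61% and 8.53% in the oviducts, against 4.01%, 4.07% and 3.68% in the tumors. The log2 difference was then -0.85, and the tumors were again close to one another.

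With TMM scaling 66 of the 86 tested 5p names that are not members had a log2 fold change below 0, and the let-7 values lay within their range. Among all 5p counts the family took 7.90%, 8.83% and 10.9% in the oviducts, against 6.80%, 6.90% and 6.80% in the tumors. With TMM factors taken from 5p names alone, which treats 5p names as unchanged on average, the pooled log2 difference was 0.13, that is slightly higher in the tumors. With factors from 3p names alone it was -1.84. Over all tested names the median log2 fold change, as tumor over oviduct, was 0.20 with TMM, 0.32 with upper-quartile factors, 0.65 with library totals, -0.66 with factors from 3p names and 1.33 with factors from 5p names. In the same order the members' median was -0.91, -0.79, -0.41, -1.75 and 0.22, below that of all names each time. A change of factors moves all names by nearly the same amount, so this gap is the same result restated in each scaling.

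**Figure D1:**
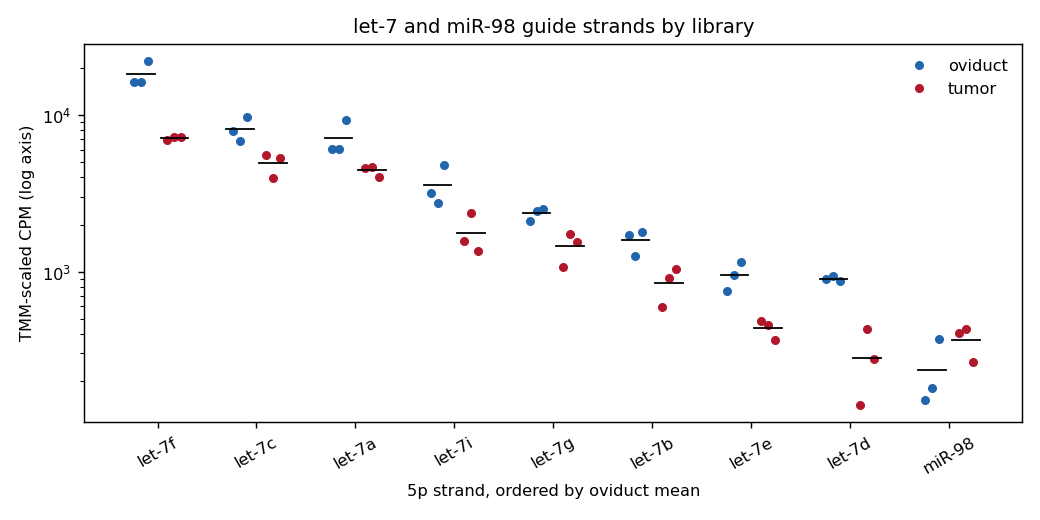
TMM-scaled CPM on a log axis for each guide strand, ordered by its oviduct mean, with 1 point per library and bars at the group means (3 oviducts, 3 tumors). With this scaling the tumor points of the 8 let-7 members lie below their oviduct points, and those of miR-98 overlap them. Of all tested names 30.4% lie lower without overlap, and of the tested 5p names 55.8%. With factors from 5p names alone the fitted changes of let-7a, let-7b, let-7c, let-7g and let-7i lie above 0.

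Of the 9 members, edgeR called 5 lower and 0 higher, and 4 were not called. Among all 227 names 25.6% were called lower and 26.9% higher. Among the 86 other tested 5p names 41 were called lower (47.7%) and 2 higher (2.33%), so the members' share of calls was near that of 5p names in general. The members' median log2 fold change of -0.91 was set beside -1.12 for the other 5p names and 0.89 for the 110 tested 3p names. At an unadjusted p under 0.05 edgeR gave 7 members lower and 0 higher, and DESeq2 called 6 lower, beside 27.3% of all names, and 0 higher. CPM values did not overlap, with the tumors lower, for 8 members and for 30.4% of all tested names. Among 5p names this held for 55.8% of the 95 tested, members included, and for 45 of the 86 that are not members.

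**Figure D2:**
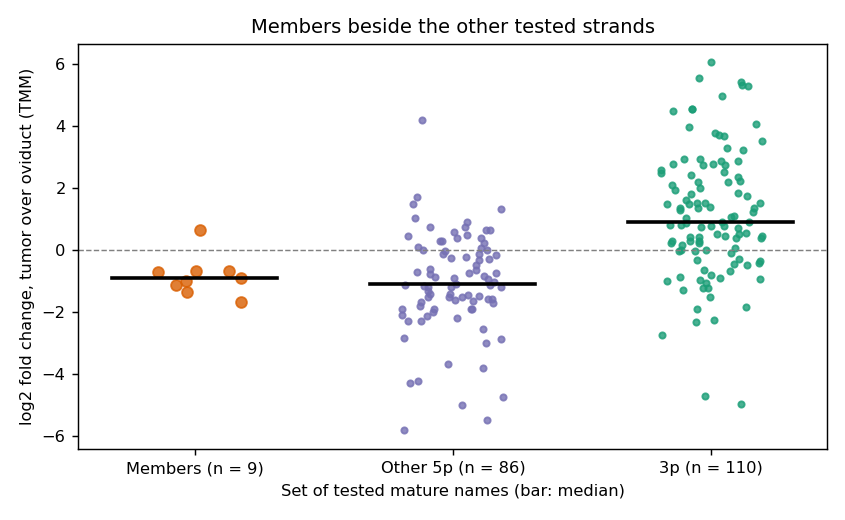
Log2 fold change (tumor over oviduct, TMM) of the 9 members, the 86 other tested 5p names and the 110 tested 3p names, with 1 point per name and bars at the medians. The members sit within the range of the other 5p names, with medians of -0.91 and -1.12, and the 3p median is 0.89. With factors from 5p names alone the members' median is 0.22.

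The most abundant member, mmu-let-7f-5p, also fell clearly. Its level was 16334, 16335 and 22155 CPM in the oviducts, against 6986, 7243 and 7211 CPM in the tumors. The tumors hardly differed from each other and lay below every oviduct. The fall was 2.56-fold (log2 -1.35, SE 0.27, edgeR adjusted p = 0.00204). It kept its call without any single library, and lost it with library totals (log2 -0.93, adjusted p = 0.133) or factors from 5p names (log2 -0.23, adjusted p = 0.502). In rank among mouse names it stood 11th, 8th and 6th in the oviducts, against 17th, 17th and 15th in the tumors. A rank needs no scaling, but it also drops when other names rise. By group mean, miR-199a-3p and miR-199b-3p, with identical values, rose above let-7f-5p (oviducts 4523, tumors 32815 CPM). The names miR-1957a (978, 12094), miR-5099 (3766, 10477), miR-126a-5p (7203, 14774) and miR-21a-5p (7407, 11570) did likewise. Lower itself, miR-181a-5p (15344, 9116) also came to stand above let-7f-5p. The rank is thus not separate support for a fall of let-7f-5p.

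The largest fall among the members was that of mmu-let-7d-5p. Its level was 901, 933 and 870 CPM in the oviducts, against 140, 428 and 276 CPM in the tumors. The oviducts were close together and the tumors spread 3-fold, with tumor 1 lowest at 28 counts (exact Poisson 95% interval 18.6 to 40.5). The fall was 3.19-fold (log2 -1.67, SE 0.40, edgeR adjusted p = 0.00599). The call held without each library in turn, with log2 values between -2.04 and -1.64, and was lost with library totals (log2 -1.16, adjusted p = 0.0966) and with factors from 5p names (log2 -0.59, adjusted p = 0.213).

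A fall was also called for mmu-let-7e-5p, the member whose hairpin lies beside Mir125a. Its level was 755, 945 and 1157 CPM in the oviducts, against 481, 457 and 363 CPM in the tumors, without overlap. The log2 fold change was -1.13 (SE 0.32, edgeR adjusted p = 0.0122), and it was -0.76 (adjusted p = 0.287) with library totals and -0.021 (adjusted p = 0.958) with factors from 5p names. The call held without each library in turn.

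The calls of mmu-let-7b-5p and mmu-let-7i-5p were close to the threshold. In the oviducts let-7b-5p stood at 1720, 1258 and 1803 CPM and in the tumors at 592, 906 and 1042 CPM (log2 -0.91, SE 0.33, edgeR adjusted p = 0.0413). For let-7i-5p the levels were 3174, 2740 and 4775 CPM against 1565, 2356 and 1349 CPM (log2 -1.02, SE 0.37, adjusted p = 0.0401). In both the groups did not overlap, but the gap between the nearest libraries was small. The call of let-7b-5p was lost without oviduct 1 (edgeR adjusted p = 0.0768), oviduct 3 (0.0724) or tumor 2 (0.0906), and that of let-7i-5p without oviduct 3 (0.0609) or tumor 3 (0.0572). Upper-quartile factors, library totals with or without miR-143-3p, and factors from 5p names also ended both calls, and the last turned both values positive (0.22 and 0.072).

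No fall was called for mmu-let-7a-5p, mmu-let-7c-5p and mmu-let-7g-5p, although their groups did not overlap. For let-7a-5p the levels were 6068, 6115 and 9302 CPM against 4604, 4699 and 4002 CPM (log2 -0.69, SE 0.30, edgeR adjusted p = 0.0716). For let-7c-5p they were 7956, 6846 and 9684 CPM against 5537, 3955 and 5298 CPM (log2 -0.73, SE 0.29, adjusted p = 0.0560). For let-7g-5p they were 2099, 2458 and 2519 CPM against 1063, 1753 and 1537 CPM (log2 -0.70, SE 0.33, adjusted p = 0.0909). Each of the 3 was called lower with factors from 3p names and with either other low-count filter, let-7g-5p also by DESeq2 (adjusted p = 0.0369). Without tumor 1 let-7a-5p and let-7c-5p were called (edgeR adjusted p = 0.0299 and 0.0239), and let-7a-5p also without oviduct 1 (log2 -1.13, adjusted p = 0.0454). With factors from 5p names their values were 0.42, 0.42 and 0.41.

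The member that did not follow the rest was mmu-miR-98-5p. It had 49, 99 and 94 counts in the oviducts, against 81, 100 and 60 in the tumors, although the tumor libraries were the smaller ones. Its level was 152, 180 and 370 CPM in the oviducts, against 406, 428 and 263 CPM in the tumors, so oviduct 3 lay among the tumors. The difference was not called (log2 0.65, SE 0.44, edgeR adjusted p = 0.231). It lay between 0.070 (without oviduct 1) and 0.78 (without oviduct 3) when 1 library was left out, and was -0.17 with factors from 3p names and 1.75 with factors from 5p names, where it was called (edgeR adjusted p = 0.00752) beside 49.3% of all names called higher. Its rank among mouse names was 129, 125 and 93 in the oviducts, against 91, 87 and 112 in the tumors.

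**Figure D3:**
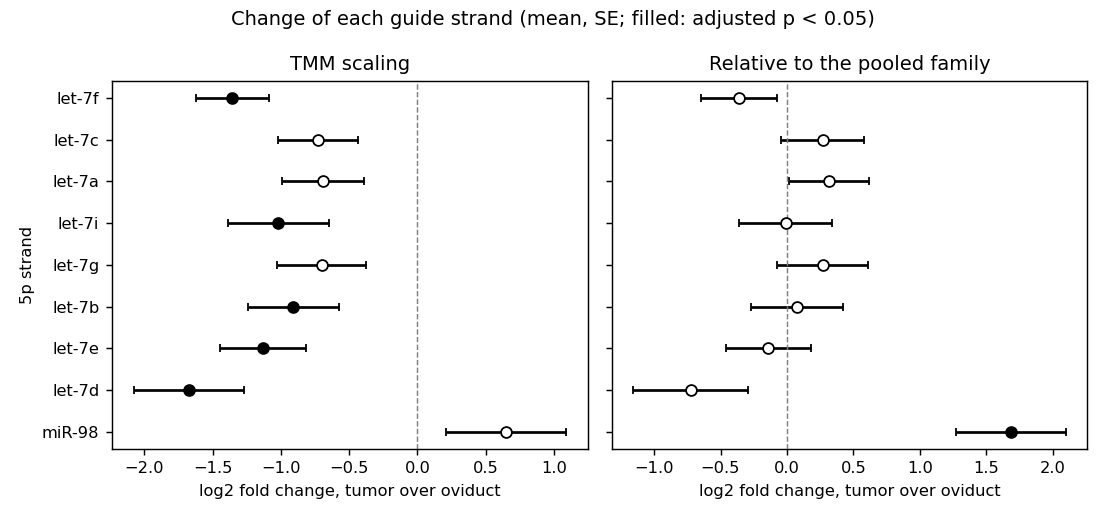
Log2 fold change (tumor over oviduct) of each guide strand with its standard error, at left with TMM scaling and at right relative to the pooled count of the 9 members, with filled points where edgeR's adjusted p is under 0.05. At left 5 let-7 members are called lower, from -1.67 for let-7d to -0.91 for let-7b, beside 25.6% of all tested names. Among the 86 other tested 5p names the share is 47.7%. With library totals or with factors from 5p names 0 are called lower, beside 11.9% and 7.93% of all names. At right miR-98 is the called member, at 1.69, beside 47.1% of all tested names called higher.

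The next comparison asked whether the members moved together. It took the pooled count of the 9 members as the size of each library, which needs no scaling between libraries. In this fit miR-98-5p rose against its family by 1.69 on the log2 scale (SE 0.41, edgeR adjusted p = 0.00713), a 3.22-fold rise. It made up 0.389%, 0.476% and 0.703% of the family in the oviducts, against 1.90%, 1.92% and 1.23% in the tumors, higher in 3 of 3 tumors than in any oviduct. The call held in all 9 tested alternatives, with adjusted p between 0.00394 and 0.0420. On this scale 47.1% of all tested names were called higher and 7.93% lower. The higher calls included 16 of the 86 other 5p names, so a rise against let-7 was not particular to miR-98 among microRNAs. For the other 8 members 0 were called in either direction, and 0 had an unadjusted p under 0.05. Their values ran from -0.72 (SE 0.43) for let-7d-5p to 0.32 (SE 0.30) for let-7a-5p.

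The share of let-7f-5p in the family was steady within groups and lower in the tumors. It was 41.7%, 43.2% and 42.1% in the oviducts, against 32.7%, 32.6% and 33.8% in the tumors. These shares did not overlap, but the fit relative to the family did not call let-7f-5p (log2 -0.36, SE 0.29, edgeR adjusted p = 0.305). Since let-7f is itself a large part of the pooled count, the change was -0.57 against the other 8 members, a value with no test. The share of let-7a-5p went the other way without overlap, from 15.5%, 16.2% and 17.7% to 21.5%, 21.1% and 18.8%. Counts per pooled family count did not overlap for 12.8% of all tested names on the lower side and 49.3% on the higher side. The shares of let-7b, let-7c, let-7d, let-7e, let-7g and let-7i overlapped between the groups.

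The counts of let-7f-5p and let-7a-5p, which differ by G12A alone, were also set side by side. How reads of such close members were assigned is not given, so ratios between them are less certain than the pooled level. There were 2.69, 2.67 and 2.38 let-7f counts for each let-7a count in the oviducts, against 1.52, 1.54 and 1.80 in the tumors. The ratio of let-7f to let-7c went from 2.05, 2.39 and 2.29 to 1.26, 1.83 and 1.36. The ratio of let-7c to let-7a overlapped between the groups, at 1.31, 1.12 and 1.04 against 1.20, 0.842 and 1.32. For let-7f and miR-98, whose hairpins Mirlet7f-2 and Mir98 are neighbours, the ratio went from 107, 90.8 and 59.9 to 17.2, 16.9 and 27.5. These pairs were chosen after their values were seen, so they are given as a description.

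**Figure D4:**
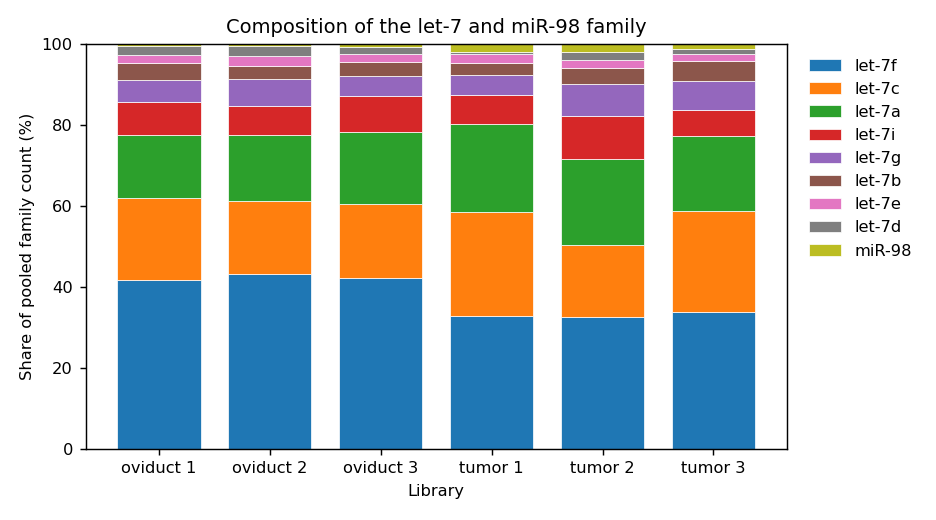
Share of each member in the pooled count of the 9 guide strands, in percent, with 1 stacked bar per library. The let-7f part runs from 41.7% to 43.2% in the oviducts, against 32.6% to 33.8% in the tumors, and the thin miR-98 part at the top is wider in the tumors.

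The order of the members was otherwise much the same in both groups. By mean CPM it ran let-7f, let-7c, let-7a, let-7i, let-7g, let-7b and let-7e in both. The oviducts ended with let-7d and then miR-98, and the tumors with miR-98 and then let-7d. In the oviducts the ranges of let-7c and let-7a overlapped, as did those of let-7e and let-7d, while each other neighbouring pair was apart. In the tumors let-7c and let-7a, let-7i and let-7g, let-7e and miR-98, and miR-98 and let-7d overlapped. The members let-7f, let-7c and let-7a together made up 77.7% ± 0.380 of the family in the oviducts, against 76.3% ± 4.39 in the tumors (SD, n = 3 each), which did not separate the groups. The evenness of the 9 shares did separate them. The effective number of members, 1 over the sum of squared shares, was 3.98, 3.88 and 3.93 in the oviducts, against 4.35, 4.93 and 4.48 in the tumors, so the family was spread more evenly over its members there. This value has no test. These levels also carry the ligation and amplification preferences of the library kit, which were not measured here.

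The scaling moved the members' values up and down as a block, and it also changed their spread. With library totals the SEs of the members ran from 0.52 to 0.63, against 0.27 to 0.44 with TMM. With library totals alone edgeR called 0 of the 9 lower (1 at an unadjusted p under 0.05) beside 11.9% of all names, and with factors from 3p names it called 8 beside 40.5%. With factors from 5p names it called 0 lower (0 unadjusted) beside 7.93%. Upper-quartile factors gave 3 beside 22.0%, and totals without miR-143-3p gave 3 beside 21.6%. In each of these let-7d had the lowest value and miR-98 the highest, which is not separate support, since a change of scaling moves all names nearly alike.

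**Figure D5:**
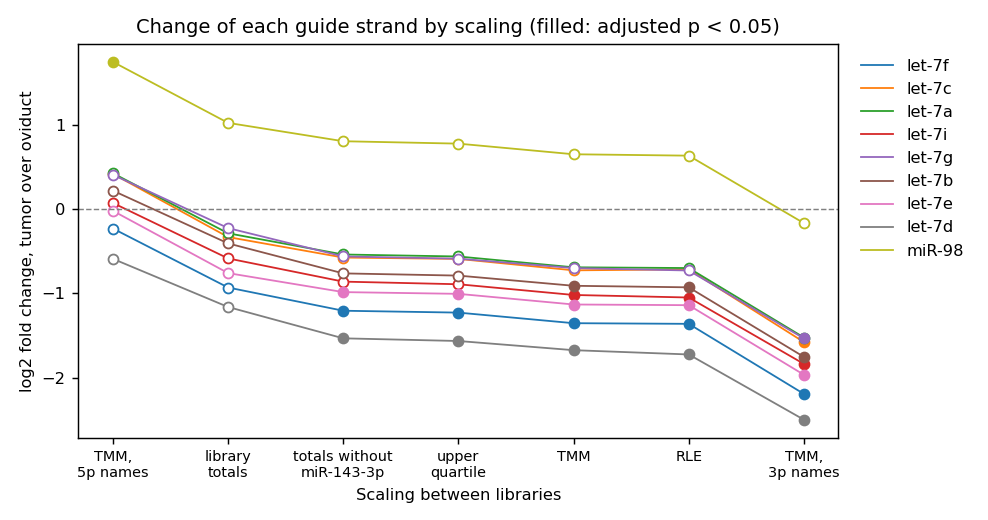
Log2 fold change (tumor over oviduct) of each guide strand under 7 scalings between libraries, joined by a line per member, with filled points where edgeR's adjusted p is under 0.05. The lines run nearly parallel, from miR-98 at the top to let-7d at the bottom, and their level relative to 0 depends on the scaling.

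Copies of a hairpin are summed in the strand counts and ratios that follow, so the 12 hairpins are treated as 9. In the oviducts these 9 gave 46780 guide counts beside 778 counts of 3p strands, 447 of them from let-7d. A 3p strand of let-7a and one of let-7c have the same counts in every library, so the 3p total may count the same reads again. The hairpins of let-7d, let-7f-2 and miR-98 are shown with the guide in capitals, let-7d because its main strand changed and the other pair because they are neighbours.
Mirlet7d: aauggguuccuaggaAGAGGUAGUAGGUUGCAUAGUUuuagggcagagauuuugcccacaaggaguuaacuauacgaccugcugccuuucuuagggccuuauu
Mirlet7f-2: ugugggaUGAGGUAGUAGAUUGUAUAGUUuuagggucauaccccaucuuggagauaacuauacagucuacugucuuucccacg
Mir98: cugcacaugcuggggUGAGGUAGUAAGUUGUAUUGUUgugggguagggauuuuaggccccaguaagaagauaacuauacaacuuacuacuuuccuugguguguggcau

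The ratio of guide to 3p counts, taken within each library, fell in 7 of the 9 hairpins and rose in 0 (limma, adjusted p under 0.05; 0 rose at an unadjusted p under 0.05), beside 47.2% of 142 hairpins that fell and 4.23% that rose. The median log2 change was -2.14 for the 9 and -1.53 for all 142. The largest fall was in let-7c (log2 -3.63, SE 0.61, limma adjusted p = 0.000702), but a 3p strand of let-7c has the same counts as one of let-7a, so these are not separate results. In let-7d the guide took 68.9% ± 5.35 of the counts in the oviducts, against 34.5% ± 9.64 in the tumors (SD, n = 3 each), and it was the only one of the 9 hairpins in which the 3p strand was the more counted in the tumors, with 332 3p beside 191 guide counts. The hairpins that were not called were miR-98 (log2 -0.59, SE 0.77, limma adjusted p = 0.567) and let-7g (log2 0.17, SE 0.72, adjusted p = 0.868), with 11 and 16 3p counts (oviducts and tumors) for miR-98, and 7 and 2 for let-7g. Some called falls also rested on few 3p counts, with 7 and 18 (oviducts and tumors) for let-7i. There were 35 and 40 for let-7e, and 38 and 39 for let-7f. The other called hairpins had at least 65 3p counts in each group. With a pseudocount of 0.1 on each strand, 5 falls were called, beside 34.5% of all hairpins. With a pseudocount of 5, 7 were called, beside 52.1%. The number of falls was 4 without oviduct 1, beside 36.6% of all hairpins, and 4 without oviduct 3, beside 39.0%.

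The 5 microRNAs that share genomic clusters with let-7 hairpins were all called lower with TMM scaling, and 4 of them also relative to the pooled let-7 family. By the GENCODE M21 annotation Mir99b (chr17:17830188-17830257) and Mir125a (chr17:17830812-17830879) lie on either side of Mirlet7e, at 95 and 368 bases. Mir99a lies 657 bases from Mirlet7c-1 and Mir100 5212 bases from Mirlet7a-2, while the hairpins of miR-125b, Mir125b-1 and Mir125b-2, lie 45115 and 46523 bases from theirs. The 5 calls of their guide strands stand beside 25.6% of all names called lower, and their median log2 fold change was -2.11. Among the 86 tested 5p names outside the let-7 family, these 5 included, 41 were called lower (47.7%) and the median was -1.12. The values of miR-125b-5p were 3198, 3089 and 1768 CPM in the oviducts, against 271, 145 and 210 CPM in the tumors (log2 -3.69, SE 0.41, edgeR adjusted p = 6.98e-05). For miR-100-5p the log2 fold change was -2.84 (SE 0.37), for miR-99a-5p -2.11 (SE 0.34), for miR-125a-5p -2.01 (SE 0.36) and for miR-99b-5p -1.52 (SE 0.33). Relative to the pooled family 4 of the 5 were called lower, beside 7.93% of all names and 14 of those 86 5p names. They were at -2.76 for miR-125b-5p, -1.92 for miR-100-5p, -1.17 for miR-99a-5p and -1.09 for miR-125a-5p (edgeR adjusted p = 0.00084, 0.00478, 0.0315 and 0.0459). The exception was miR-99b-5p (log2 -0.59, adjusted p = 0.216), whose call in the TMM fit was also lost with library totals (adjusted p = 0.114) and with factors from 5p names (adjusted p = 0.301).

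Other names with the let-7 seed added nothing to the pooled level. In RefSeq 2 further mouse names carry the same bases 2 to 8, let-7k and miR-1961, and both had 0 counts in all 6 libraries. A count of 0 allows up to 5.45 to 11.8 CPM in an oviduct library and 12.8 to 15.0 CPM in a tumor library (3 counts). The name let-7j, whose seed differs, had 3 counts in the oviducts, against 2 in the tumors.

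Beyond the family, the names whose level followed the pooled family most closely over the 6 libraries were miR-26b-5p (Pearson r = 0.973), miR-411-5p (0.959), miR-181d-5p (0.951), miR-92b-3p (0.946) and miR-872-5p (0.940), out of 164 names with a mean of at least 100 CPM. These values rest on log2 CPM, share the depth and scaling of each library and mainly follow the difference between the groups, so they are a description. Their log2 fold changes ranged from -1.43 (miR-26b-5p) to -5.49 (miR-411-5p). Among the members r with the pooled family was between 0.848 (let-7g) and 0.996 (let-7f) for let-7 and -0.396 for miR-98.

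Of 6 lists of cell type markers, those of multiciliated and endothelial cells had summed levels that separated the groups, and the other 4 overlapped. The summed CPM of 3 microRNAs of multiciliated cells, a defining cell of oviduct epithelium, ran from 13550 to 20560 in the oviducts and from 51.3 to 898 in the tumors, and 2 of the 3 were called lower. All 3 are 5p strands, and the 3p strands of miR-34b and miR-34c were lower by much less. Their log2 fold changes were -1.53 and -0.96, against -5.01 and -5.83 for the 5p strands. That of miR-34b-3p was called (edgeR adjusted p = 0.00597) and that of miR-34c-3p was not (0.0705). The 5 epithelial microRNAs of the miR-200 family ran from 6913 to 11920 and from 3841 to 6986, with 1 called lower. The pair of smooth muscle and fibroblast microRNAs ran from 486650 to 555040 and from 94143 to 831620, with 1 called lower. Nearly all of this sum was miR-143-3p, which was not called (log2 -0.45, edgeR adjusted p = 0.578). The called one, miR-145a-5p, had means of 2867 CPM in the oviducts and 104 CPM in the tumors, without overlap (log2 -4.76, edgeR adjusted p = 3.78e-05). Its 3p strand was lower by less (log2 -1.90). The endothelial pair, both called higher, ran from 7117 to 9508 and from 15136 to 20113. The 5 leukocyte microRNAs ran from 1087 to 1758 and from 740 to 4977, with 0 called by edgeR (1 higher at an unadjusted p under 0.05) and 0 by DESeq2. The 3 red cell microRNAs ran from 4457 to 5630 and from 1860 to 11534, and of the 2 that could be tested miR-451a was called higher (edgeR adjusted p = 0.0449). No marker was at 0 in either group. The part of these shifts in the let-7 values was not tested.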

How the data were processed

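Small RNA libraries from 3 oviducts and 3 tumors were made from miRNeasy RNA with an Illumina TruSeq small RNA kit, per the labels' protocols. The series mentions 5 oviducts and 4 tumors, and samples beyond these 6 were not analysed here. The submitters' processing notes name cutadapt. The authors deposited raw counts for each mature microRNA name, without normalization, and per the file headers these came from BAM files of trimmed reads. Aligner, counting rule, microRNA reference and build: not given in the sources used here. Therefore positions come from RefSeq (GRCm38.p6) and GENCODE M21 and serve only as locations.

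The 67 names of other species, with 10 counts in all, were left out. Members and lists were chosen with earlier results of these data known. All members were named by rule, as were all cluster partners, all names that share the seed and the 5 names with the highest Pearson r (prior count 0.5). Tests used edgeR 4.0.16 in R 4.3.3 (filterByExpr with a minimum count of 10, TMM, robust quasi-likelihood, two-sided, threshold 0.05) on all mouse names. The fit relative to the family used the pooled member count as library size. Arm ratios, log2 of (5p + 0.5) over (3p + 0.5) for hairpins averaging 20 counts or more per library, were tested with limma 3.58.1. Copies of a hairpin (let-7a-1 and let-7a-2, for example) were summed there. Alternatives were DESeq2 1.42.0, further scalings, filters and pseudocounts, a replicate block and leaving out each library. The scripts were tested on simulated counts. Intervals (exact, 95%) and the floor of 3 counts cover counting error only, since reads carry no molecular identifiers. No library repeated another of its group (chi-square of at least 30.7 per degree of freedom).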

Additional observations from a re-analysis of the deposited data

How the results depend on the processing

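The count of members called lower, 5 with TMM, was 3 with upper-quartile factors, 0 with plain library totals, 3 with totals without miR-143-3p, 8 with factors from 3p names, 0 with factors from 5p names (an alternative chosen after seeing the data, with 1 called higher), and 8 with no low-count filter (beside 8.27% of the 919 names then tested) or with a mean of at least 10 CPM (beside 22.4%). It was between 3 (without oviduct 3, beside 20.9%) and 7 (without tumor 1, beside 27.9%) when 1 library was left out. The pooled log2 difference, -0.997, was -0.58 with library totals, -1.84 with factors from 3p names and 0.13 with factors from 5p names, and between -1.38 and -0.97 when 1 library was left out. With factors from 5p names the values of let-7a, let-7b, let-7c, let-7g and let-7i turned to 0.42, 0.22, 0.42, 0.41 and 0.072, and with factors from 3p names that of miR-98 to -0.17. Relative to the family, let-7i lay between -0.26 and 0.14 and let-7b between -0.12 and 0.27 when 1 library was left out. The count of let-7 hairpins with a fallen arm ratio, 7, was between 4 and 7. The scaling alternatives differ in what is taken as unchanged, and they also change the spread between libraries. The cause of the other changes was not tested.

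Oviducts and tumors share replicate numbers, but nothing ties them to an animal or batch. The deviations of libraries with the same number correlated at -0.0623, 0.066 and -0.135 over 227 names. Between libraries with different numbers the values ran from -0.106 to 0.14. This gave no sign of pairing by number, but with so few libraries it cannot exclude pairing. With the replicate number as a block, 4 members were called lower (let-7i was lost, edgeR adjusted p = 0.0523) beside 23.3% of all names, and 0 higher. Relative to the family 1 was higher, beside 44.5%, and 0 lower. In the same block fit 5 cluster partners were lower, and 6 arm ratios fell, beside 40.8% of all hairpins, and 0 rose. Depth limits miR-98 and let-7d most, with as few as 49 and 28 counts in a library.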
